A study of Mus musculus with 64 samples.

Results

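Glucose is taken up and broken down by isoforms that differ between embryonic cells and hepatocytes, and 8 genes for such isoforms were examined from the eight-cell embryo to the adult liver. The genes were *Slc2a1*, *Slc2a3* and *Slc2a2*, which encode the glucose transporters GLUT1, GLUT3 and GLUT2, the hexokinase genes *Hk1* and *Hk2*, the aldolase gene *Aldoa*, and the pyruvate kinase genes *Pkm* and *Pklr*. They were chosen by name, and all 8 were found among the 23338 genes counted in each library, *Pkm* under its older symbol *Pkm2*. Levels are reads per 1000000 reads on genes (CPM), scaled over all samples with the TMM method, which corrects for differences in RNA composition between libraries.

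RNA-seq counts were available for 64 samples of C57BL/6 mice (C57BL/6 J in the study's methods), with no treatment or altered allele named in the labels. There were 12 eight-cell embryos from natural matings (6 male, 6 female), collected at 2.5 days post-coital from 4 litters. The 4 embryonic stem (ES) cell lines (2 male, 2 female) had been derived from eight-cell embryos and grown in 2i medium, which holds the inhibitors PD0325901 and CHIR99021 together with LIF. The livers came from 24 fetuses in late gestation and from 24 adults of 15 to 20 weeks, each with 12 males and 12 females. The sex of the embryos had been assigned by the study from sex-linked transcripts. Single embryos were amplified with a low-input protocol, whereas RNA of the ES cells and livers went into a total RNA kit, so protocol and stage cannot be told apart where embryos are compared with other samples. The labels do not say which livers shared a litter or a dam, so p-values measure the spread between these samples. Each ES cell line is 1 culture, and the livers are whole tissue, in which fewer cells of a type and less RNA per cell cannot be told apart.

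In glycolysis, hexokinases phosphorylate glucose once it has entered the cell, aldolases split fructose 1,6-bisphosphate, and pyruvate kinases form pyruvate and ATP in the last step. Hepatocytes rely on GLUT2, which has a low affinity for glucose, and on liver-type pyruvate kinase, while embryonic and dividing cells use GLUT1, GLUT3, hexokinases 1 and 2, aldolase A and the M-type pyruvate kinases. *Pklr* is transcribed from separate starts in red cells, giving the R type, and in liver, giving the L type. *Pkm* gives M1 or M2 through alternative exons. Counts per gene do not separate R from L or M1 from M2, and reads of *Aldoa* and *Pkm* may be shared with processed pseudogenes, so their levels carry that uncertainty.

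Promoter sequences are shown for *Slc2a2* and *Pklr*, which were high in liver and at or near 0 in ES cells, and for *Hk2*, which was highest in ES cells. The windows below are those of 2 hepatic genes and of 1 embryonic gene, taken from RefSeq on the GRCm38.p6 build and read 5′ to 3′ up to the base before the start, in lower case with motif matches in capitals. *Slc2a3* had no entry in the promoter table. *Slc2a2* at chr3:28697653-28697902 on the plus strand is shown with a GATA core in capitals, *Pklr* at its upstream (R-type) start at chr3:89135892-89136141 on the plus strand also with a GATA core, *Pklr* at its downstream (L-type) start at chr3:89136373-89136571 on the plus strand with the carbohydrate response element and then the HNF1 palindrome, and *Hk2* at chr6:82774455-82774704 on the minus strand with the hypoxia response core and the GC box.
Slc2a2: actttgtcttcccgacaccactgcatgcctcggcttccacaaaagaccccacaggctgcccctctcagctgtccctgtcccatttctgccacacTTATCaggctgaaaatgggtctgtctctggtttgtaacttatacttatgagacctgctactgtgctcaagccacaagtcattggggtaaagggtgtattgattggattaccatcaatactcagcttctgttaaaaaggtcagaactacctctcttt
Pklr upstream start: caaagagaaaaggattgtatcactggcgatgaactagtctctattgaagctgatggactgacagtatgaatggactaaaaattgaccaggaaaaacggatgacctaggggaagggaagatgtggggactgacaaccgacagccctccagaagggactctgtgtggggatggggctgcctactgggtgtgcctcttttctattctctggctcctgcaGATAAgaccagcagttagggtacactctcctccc
Pklr downstream start: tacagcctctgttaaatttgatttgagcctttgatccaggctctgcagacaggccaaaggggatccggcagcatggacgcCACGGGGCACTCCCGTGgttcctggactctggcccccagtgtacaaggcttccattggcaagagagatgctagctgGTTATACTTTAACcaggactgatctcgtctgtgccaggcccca
Hk2: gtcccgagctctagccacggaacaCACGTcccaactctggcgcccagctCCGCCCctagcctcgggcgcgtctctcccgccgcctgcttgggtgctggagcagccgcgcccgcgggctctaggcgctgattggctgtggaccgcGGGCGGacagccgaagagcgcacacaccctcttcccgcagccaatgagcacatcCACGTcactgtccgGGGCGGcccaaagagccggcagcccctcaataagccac

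The downstream *Pklr* window is 199 bases long, because it stops where the annotated first exon of a shorter *Pklr* transcript begins. It lies inside the first intron of the longer transcript. Over 12 windows of 250 bases for 7 of the 8 genes, searched on both strands, the paired E-box letters of the carbohydrate response element (CACGNG and CNCGTG with 5 bases between them) were found in 1, at 170 to 154 bases before the downstream *Pklr* start, and in 0.0396% of 32851 promoters. These letters were written down with the *Pklr* sequence known. The HNF1 palindrome (GTTA and TAAC with 5 bases between them) was found in the same window, at 94 to 82 bases before the start, and in 0.307% of promoters. The GATA core GATAA was in 5 of the 12 windows and in 22.6% of promoters. It stood at 34 to 30 bases before the upstream *Pklr* start and at 156 to 152 before *Slc2a2*. The GC box GGGCGG was also in 5 windows, against 32.7% of promoters, with 3 copies at *Hk2*. The hypoxia response core ACGTG was in 5 windows and 16.6% of promoters, and TATAAA was in 1 window, the downstream *Pklr* one beyond its printed stretch, and in 12.4% of promoters. The windows of *Aldoa* start sites 2 and 3 overlap. Their shared GC boxes and hypoxia core are counted in both, so the windows are not independent. GC content was 69.6% at *Hk2*, 47.2% at *Slc2a2*, and 50% and 54.4% at the upstream and downstream *Pklr* starts. A match describes letters only and says nothing of binding.

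Depth differed between stages. Reads on genes ran from 4659656 to 7725432 in eight-cell embryos, from 9857929 to 10386931 in ES cells, from 5145371 to 8499603 in fetal livers and from 1567583 to 4757610 in adult livers, of which 17 of 24 had at least 2000000. Before scaling, 3 reads were worth 0.289 CPM in the ES cell line with the most reads and 1.91 CPM in the adult liver with the fewest. The stage labels were checked against marker genes. The summed level of 8 hepatocyte markers lay between 46587 and 63118 CPM in fetal livers, between 76434 and 102266 CPM in adult livers and at most at 8.72 CPM in ES cells, and that of 6 pluripotency markers was at least 2597 CPM in ES cells and at most 36.9 CPM in the livers. Fetal livers also held blood cell RNA. The sum of 10 erythroid markers was 5113 to 7626 CPM there against 18.4 to 249.5 CPM in adult livers, although *Hba-a1* and *Hbb-b1* stood under 1 CPM in both. Over the adult livers 8 of the 10 had a mean under 1 CPM, and the sum was 191.6 to 249.5 CPM in males and 18.4 to 57.9 CPM in females. The sum of 5 neutrophil markers was 1310 to 2714 CPM in fetal livers against at most 8.60 CPM in adult livers. In 6 fetal livers (male replicates 11 and 12, female replicates 14, 15, 20 and 24) pancreas markers exceeded 10 CPM or bile duct markers 50 CPM. The calls and log2 values of the 8 genes and the relations within fetal livers were also computed without them. Shares, pooled folds, ranges and likeness were computed with all 24.

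The stage comparisons below were tested with edgeR's quasi-likelihood F test over all genes that passed an expression filter, and a gene was called where its Benjamini-Hochberg adjusted p was under 0.1 and its log2 difference exceeded 0.5 in size, the thresholds the study applied. Calls were common among all genes. Between adult and fetal liver 66.6% of 12647 tested genes were called (31.6% higher and 35.0% lower in the adult), between fetal liver and ES cells 76.7% of 14333 (40.5% higher and 36.2% lower in fetal liver), and between ES cells and eight-cell embryos 65.0% of 12478 (37.6% higher and 27.4% lower in ES cells). Of the 8 genes, 7 were called between adult and fetal liver (1 higher, 6 lower) and 8 between fetal liver and ES cells (4 higher, 4 lower). From eight-cell embryos to ES cells 6 were tested and all 6 were called higher in ES cells, while *Slc2a2* and *Pklr* had too few reads to be tested. The median log2 difference of the 8 genes was -2.83 between adult and fetal liver, against -0.04 over all genes. It was -0.55 between fetal liver and ES cells, against 0.03, and 3.76 for the 6 genes between ES cells and embryos, against 0.44. With shares this high for all genes, the size of a change says more than its call. The comparisons share stages, so the ES cells and the fetal livers each enter 2 of them.

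**Figure D1:**
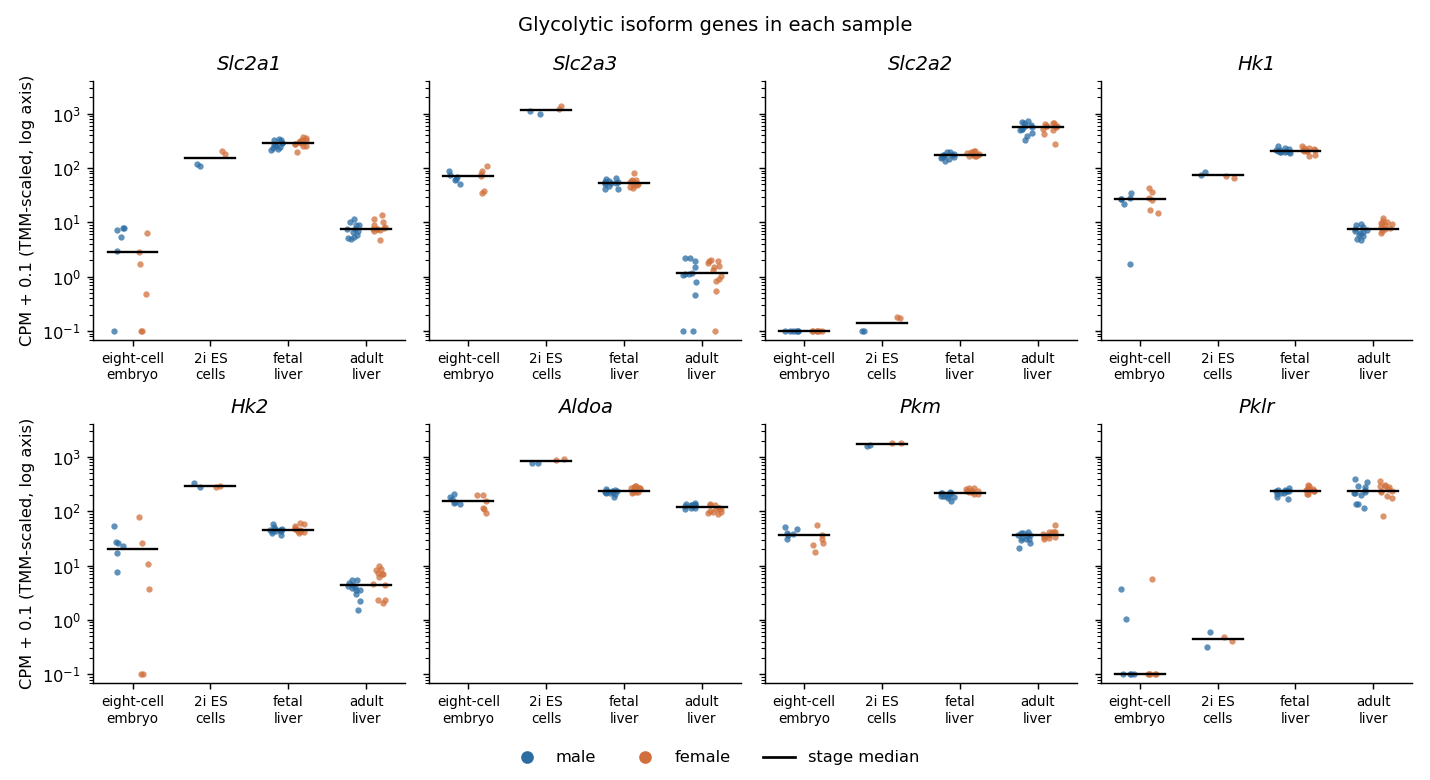
Level of each gene in every sample, as TMM-scaled CPM plus 0.1 on a log axis, by stage, with males in blue, females in orange and the stage median as a black line. Slc2a2 is at or near 0 before the liver, Slc2a3 and Pkm are highest in the 4 ES cell lines, and Pklr covers 171.2 to 307.2 CPM in fetal and 83.5 to 393.8 CPM in adult livers.

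*Slc2a1* and *Slc2a3* changed at every step between stages, and *Slc2a2* was a transcript of the livers. *Slc2a1* encodes GLUT1, the widely expressed transporter of dividing cells and red cells, and lies on chromosome 4 at 119108711 to 119137983 of GRCm38 (plus strand). Its lowest, median and highest levels were 0, 2.82 and 7.94 CPM in eight-cell embryos. The male ES cell lines had 120.5 and 109.9 CPM and the female lines 203.1 and 182.3 CPM. In fetal livers the lowest, median and highest levels were 198.9, 283.9 and 374.3 CPM, and in adult livers 4.60, 7.47 and 13.6 CPM. Fetal liver and ES cells were thus both high, with ranges that met at one liver and one line, and all 24 adult livers lay below every ES cell line and every fetal liver. *Slc2a1* was higher in ES cells than in eight-cell embryos by 5.61 ± 0.84 on the log2 scale (SE, edgeR adjusted p = 2.5e-05), higher in fetal liver than in ES cells by 0.81 ± 0.14 (adjusted p = 5.2e-06), and lower in adult than in fetal liver (log2 -5.04 ± 0.09, adjusted p = 3.1e-47), a fitted 32.9-fold difference.

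*Slc2a3* encodes GLUT3, a transporter with high affinity for glucose that is typical of early embryos and neurons, and lies on chromosome 6 at 122727809 to 122801640 (minus strand). It was already present in every eight-cell embryo, at 34.1 to 108.3 CPM with a median of 70.0. ES cell lines had 993 and 1119 CPM (male) and 1372 and 1238 CPM (female), far above any other sample. Fetal livers held 40.9 to 81.2 CPM with a median of 53.5, overlapping the embryos. In adult livers it was at most 2.14 CPM, with 64 reads over all 24 libraries and none in 3 of them. Between embryos and ES cells it rose by 3.94 ± 0.21 on the log2 scale (adjusted p = 1.6e-10). It was lower in fetal liver than in ES cells (log2 -4.55 ± 0.08, adjusted p = 2.2e-30) and lower again in the adult (log2 -5.36 ± 0.12, adjusted p = 8.3e-43).

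*Slc2a2*, on chromosome 3 at 28697903 to 28731359 (plus strand), encodes GLUT2, the transporter of hepatocytes and pancreatic beta cells. It had 0 reads in all 12 eight-cell embryos and 2 reads over the 4 ES cell lines, 1 in each female line. Fetal livers held 136.9 to 208.7 CPM with a median of 175.2, and adult livers 280.5 to 720.1 CPM with a median of 578.6. Every adult liver was above every fetal liver. Relative to all reads on genes, the pooled fetal level was 3983-fold that of ES cells, with a counting interval from 1102 to 32885 that reflects the 2 reads. From fetal to adult liver *Slc2a2* rose by 1.75 ± 0.07 on the log2 scale (edgeR adjusted p = 9.6e-31), and it alone among the 8 genes was called higher in the adult.

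To compare different genes, levels were divided by merged exon length, which is an approximation. Whether reads scale with exon length in the amplified embryo libraries was not tested, so shares within embryos are less certain. As shares of the CPM per kilobase of the 3 transporter genes, *Slc2a3* took 93.9% ± 6.04 (SD, n = 12) in eight-cell embryos and 86.5% ± 2.19 (n = 4) in ES cells. In fetal liver *Slc2a1* took 65.5% ± 4.69, *Slc2a2* 24.1% ± 3.48 and *Slc2a3* 10.4% ± 1.98 (n = 24). In adult liver *Slc2a2* took 97.2% ± 1.34, and no adult liver had less than 91.5%. Each of ES cells, fetal liver and adult liver thus had another leading transporter transcript. The log2 ratio of *Slc2a2* to *Slc2a1*, computed with 0.5 CPM added to each, was -0.68 ± 0.30 in fetal and 6.05 ± 0.48 in adult livers, and the sets did not overlap.

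**Figure D2:**
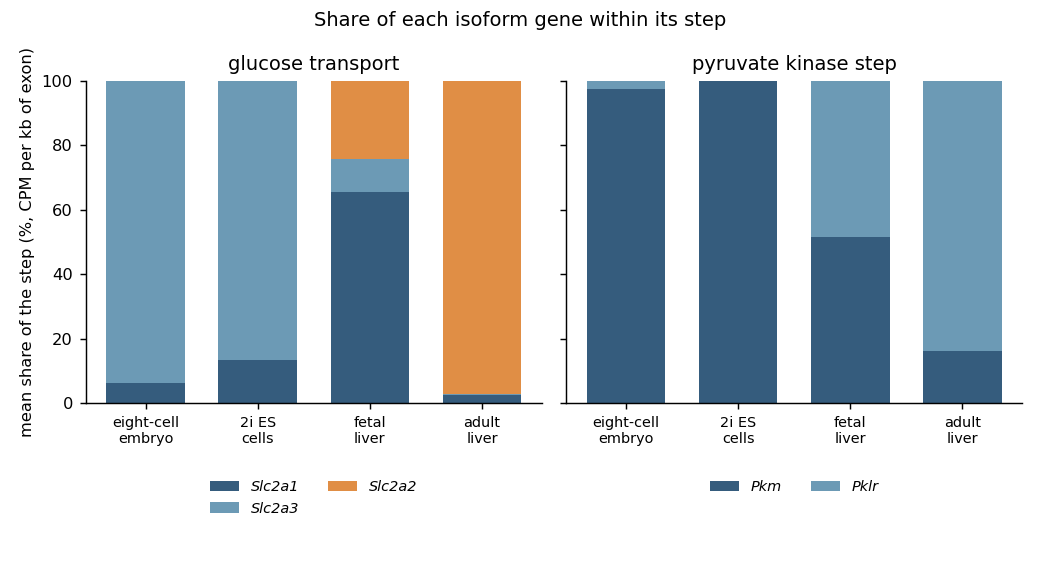
Mean share of each isoform gene in percent of the summed CPM per kilobase of exon, by stage, for glucose transport (Slc2a1, Slc2a3, Slc2a2) and for pyruvate kinase (Pkm, Pklr). Fetal liver is mixed in both, with Slc2a1 at 65.5% and Pklr at 48.4%, while Slc2a2 at 97.2% and Pklr at 83.7% lead in adult liver.

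*Hk1* was highest in fetal liver and *Hk2* in ES cells, and both were low in adult liver. *Hk1*, on chromosome 10 at 62268855 to 62379908 (minus strand), encodes the hexokinase that most tissues and red cells use. Its lowest, median and highest levels were 1.61, 27.2 and 42.9 CPM in eight-cell embryos, 165.8, 209.4 and 253.4 CPM in fetal livers and 4.73, 7.62 and 12.1 CPM in adult livers. The male ES cell lines had 75.5 and 85.9 CPM and the female lines 72.4 and 66.7 CPM. Fetal livers, ES cells and embryos formed 3 levels that did not overlap, while adult livers overlapped the embryos. *Hk1* was higher in ES cells than in embryos (log2 1.41 ± 0.42, adjusted p = 0.0088) and higher in fetal liver than in ES cells (log2 1.39 ± 0.09, adjusted p = 5.5e-16). In the adult liver it was lower than in the fetal liver (log2 -4.65 ± 0.07, adjusted p = 5.0e-52), a fitted 25.2-fold difference.

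*Hk2*, on chromosome 6 at 82725025 to 82774454 (minus strand), encodes the insulin-responsive hexokinase of muscle that many growing cells also use. In eight-cell embryos it ran from 0 to 77.4 CPM with a median of 19.8, and 2 embryos had no read. The male ES cell lines had 275.0 and 324.6 CPM and the female lines 280.7 and 293.7 CPM, the highest levels of any sample. Fetal livers held 36.4 to 59.7 CPM with a median of 45.4 and adult livers 1.45 to 9.65 CPM with a median of 4.31. *Hk2* rose from embryos to ES cells (log2 3.57 ± 0.80, adjusted p = 9.7e-04), was lower in fetal liver than in ES cells (log2 -2.76 ± 0.07, adjusted p = 8.2e-26) and fell further in the adult (log2 -3.19 ± 0.10, adjusted p = 8.9e-35).

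*Hk3*, a hexokinase of myeloid cells, had no read in eight-cell embryos and was 30.7 ± 4.89 CPM (SD, n = 24) in fetal and 10.5 ± 3.81 CPM in adult livers. Per kilobase of exon, the mean CPM in ES cells was 52.3 for *Hk2* and 15.5 for *Hk1*. In fetal liver the order of the CPM per kilobase was turned, with 43.6 for *Hk1*, 9.15 for *Hk3* and 8.30 for *Hk2*, and in adult liver the values were 1.61, 3.12 and 0.84. *Hk1* led *Hk2* in CPM in all 24 fetal livers, with a log2 ratio of 2.18 ± 0.22 (SD), while in the 4 ES cell lines that ratio was -1.96 ± 0.12. Embryos ranged from -3.04 to 6.21 in the same ratio, so single embryos differed widely. In adult livers it was 0.76 ± 0.68, and above 0 in 21 of 24.

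Of the 6 genes that were lower in adult than in fetal liver, *Aldoa* had the smallest log2 difference. It encodes aldolase A of muscle, red cells and most embryonic cells and lies on chromosome 7 at 126795234 to 126800751 (minus strand). It was 92.5, 152.1 and 208.4 CPM (lowest, median, highest) in eight-cell embryos, 181.8, 234.8 and 294.8 CPM in fetal livers and 89.9, 119.9 and 142.2 CPM in adult livers. Among ES cells, the male lines had 777.0 and 781.5 CPM and the female lines 930.6 and 879.0 CPM. Only the ES cells stood clear of all other samples, and embryos overlapped both kinds of liver. *Aldoa* rose from embryos to ES cells (log2 2.29 ± 0.18, adjusted p = 9.8e-09), was lower in fetal liver (log2 -1.90 ± 0.06, adjusted p = 2.7e-23) and lower in the adult than in the fetus (log2 -0.92 ± 0.05, adjusted p = 1.5e-24). Per kilobase of exon, its mean level was 85.1 CPM in embryos, 461.6 in ES cells, 132.6 in fetal and 64.7 in adult livers.

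Pyruvate kinase was the step whose hepatic gene was not called between fetal and adult liver, while its embryonic gene fell. *Pkm*, on chromosome 9 at 59656368 to 59679375 (plus strand), encodes the M-type enzymes. Its lowest, median and highest levels were 17.9, 36.4 and 56.5 CPM in eight-cell embryos, 156.6, 217.8 and 268.5 CPM in fetal livers and 20.8, 35.9 and 54.7 CPM in adult livers. Levels in ES cells were 1644 and 1623 CPM in the male and 1821 and 1784 CPM in the female lines. Embryos and adult livers thus sat at the same low level, fetal livers above both and ES cells above all. The log2 differences were 5.43 ± 0.21 from embryos to ES cells (adjusted p = 2.7e-12), -3.10 ± 0.06 from ES cells to fetal liver (adjusted p = 3.0e-30) and -2.47 ± 0.05 from fetal to adult liver (adjusted p = 1.6e-43).

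*Pklr*, on chromosome 3 at 89136142 to 89146784 (plus strand), encodes the liver and red cell enzymes. It had no read in 9 of 12 eight-cell embryos and 73 reads in all, of which 35 were in one embryo and 32 in another. The male ES cell lines had 3 and 7 reads and the female lines 4 and 5. Fetal livers held 171.2 to 307.2 CPM with a median of 237.4, and adult livers 83.5 to 393.8 CPM with a median of 236.9. Relative to all reads on genes, the pooled level was 562-fold higher in fetal liver than in ES cells, with a counting interval from 360 to 933. Fetal and adult livers overlapped across the whole fetal range. The fitted difference was 0.12 ± 0.10 on the log2 scale (95% interval -0.09 to 0.32, adjusted p = 0.28). Scaling by library totals alone turned it to -0.45 (adjusted p = 1.1e-04), a setting that also moved the median of all genes from -0.04 to -0.61 and the share of calls that were higher in the adult from 47.4% to 25.3%, so *Pklr* lay above the median gene there. The coefficient of variation of *Pklr* was 32.2% over adult and 13.1% over fetal livers, a difference in spread that was not tested. Fetal liver held erythroid as well as hepatocyte transcripts, and whether its *Pklr* reads come from the R or the L start was not tested, since the counts are per gene.

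*Pklr* made up 48.4% ± 4.44 (SD, n = 24) of the pyruvate kinase step per kilobase in fetal liver, between 40.8% and 57.3%, and 83.7% ± 6.33 in adult liver, between 63.4% and 91.9%. The 2 sets of livers did not overlap, and the shift came with the lower *Pkm* level and a mean *Pklr* level of 238 ± 31.1 CPM in the fetus and 239 ± 77.1 CPM in the adult. In embryos and ES cells *Pkm* made up 97.5% ± 6.24 and 99.98%.

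**Figure D3:**
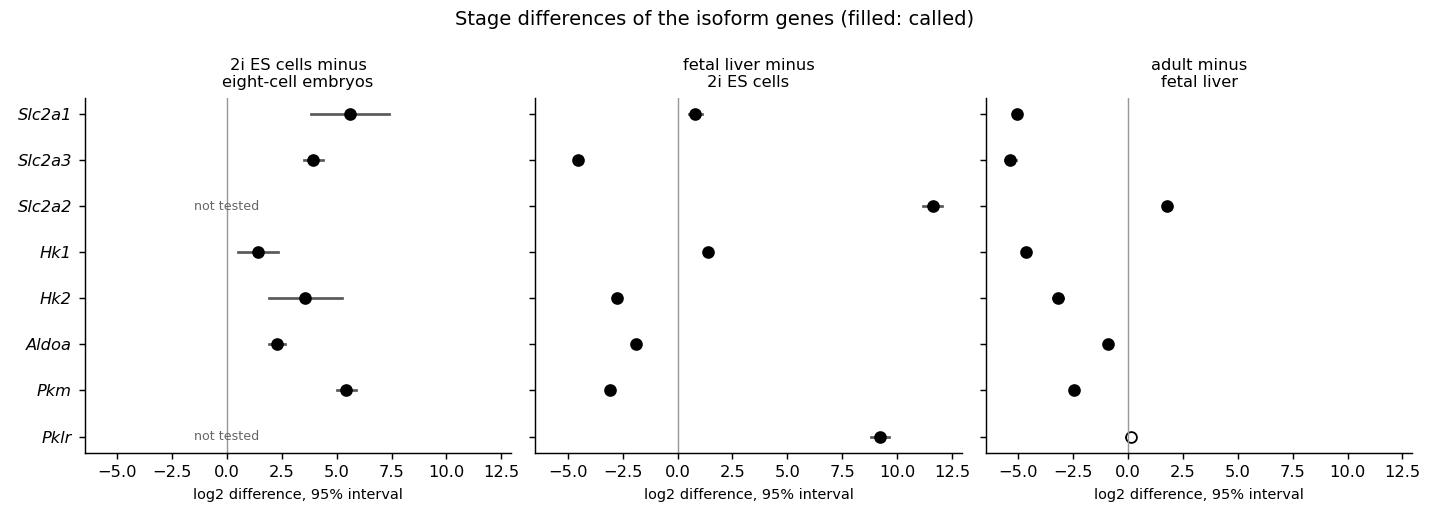
Fitted log2 difference of each gene (points) with its 95% interval (lines) for ES cells minus eight-cell embryos, fetal liver minus ES cells and adult minus fetal liver, with filled points for called genes. Slc2a2 at 1.75 is the one gene called higher in adult than in fetal liver, and the interval of Pklr there, -0.09 to 0.32, includes 0.

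A further 50 genes around these steps were examined. Between adult and fetal liver 39 of them were tested, of which 11 were called higher and 19 lower in the adult. Over all genes tested 31.6% were called higher and 35.0% lower. The median log2 difference of the 39 was -0.45, against -0.04 over all genes. Of 24 other glycolytic enzyme genes, with *Gckr* counted among them, 17 were tested there, and 3 rose and 10 fell. Of 8 other hexose transporters 5 were tested, and 3 rose and 2 fell. The largest falls were those of *Hkdc1*, a hexokinase-like gene, at -6.43 ± 0.15 and of *Slc16a3*, the lactate exporter MCT4, at -6.16 ± 0.15. Among the rises was that of *Slc2a5*, the fructose transporter GLUT5, at 4.81 ± 0.28. *Ldha* and *Ldhb*, the subunits of lactate dehydrogenase, were both lower in the adult, by log2 -0.65 ± 0.05 and -0.99 ± 0.14. Each of these calls had an adjusted p of at most 1.1e-08 in edgeR.

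Between fetal liver and ES cells 39 of the 50 were tested, and 24 were called higher and 8 lower in fetal liver, with a median of 1.21. Over all genes tested 40.5% were called higher and 36.2% lower, with a median of 0.03. All 4 genes of fructose 2,6-bisphosphate metabolism and all 4 tested lactate transport genes were among those that rose. Among the rises was that of *Hk3*, with a fitted log2 difference of 9.11 ± 0.30. In ES cells *Hk3* made up at most 0.07% of the hexokinase step per kilobase and 0% in the male lines, so this size rests on very few reads. The largest falls were those of *Ldhb* (-4.93 ± 0.10) and of *Pfkp*, the platelet-type phosphofructokinase (-3.83 ± 0.18). Between ES cells and embryos 33 were tested, and 15 were called higher and 7 lower in ES cells, with a median of 0.62. Over all genes tested 37.6% were called higher and 27.4% lower, with a median of 0.44. *Pfkp* (8.22 ± 0.84) and *Slc16a3* (6.94 ± 1.14) rose the most. *Hkdc1* (-6.06 ± 1.36) and *Pfkfb3*, which makes fructose 2,6-bisphosphate (-4.48 ± 0.43), fell the most. Per kilobase *Ldhb* made up 91.4% of the lactate dehydrogenase pair in embryos, and *Ldha* made up 99.4% in fetal and 99.5% in adult liver. In ES cells the *Ldha* share was 46.7% and 50.3% in the male and 63.0% and 65.1% in the female lines.

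Livers of the same stage differed from each other, and some of the genes varied together. Relations were computed within a stage after subtracting the mean of each sex, on log2(CPM + 0.5), with p from 100000 permutations within sex and adjustment over the 49 pairs of genes in both stages. *Slc2a3* was left out in the adult for its few reads. The points share library preparation and scaling. In adult livers *Slc2a2* and *Pklr* rose and fell together (Pearson's r = 0.83, permutation p = 3.0e-05, adjusted p = 0.0015, Spearman's rho = 0.77, permutation p = 6.0e-05, adjusted p = 0.0015, n = 24). The relation was 0.84 in males and 0.83 in females, 0.86 over the 17 livers with at least 2000000 reads, and 0.70 without the 2 livers farthest from the median of *Slc2a2*. The lowest liver in both was the same female. With the mean log2 level of the hepatocyte markers, r was -0.30 for *Pklr* (permutation, adjusted p = 0.35) and -0.48 for *Slc2a2* (permutation, adjusted p = 0.082), or -0.30 without the 2 farthest livers. With log2 reads on genes, r was 0.40 for *Slc2a2* and 0.31 for *Pklr* over all 24 livers (permutation, adjusted p = 0.21 and 0.29), 0.82 and 0.59 in males, -0.21 and -0.08 in females, and 0.60 and 0.63 over the 17 deeper livers. The part of depth in the shared variation was not tested. *Aldoa* and *Pkm* were related as well (r = 0.51, permutation p = 0.0055, adjusted p = 0.039, rho = 0.51, permutation p = 0.010, adjusted p = 0.085), at 0.55 without the 2 farthest livers and 0.33 over the 17 deeper ones.

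In fetal livers the strongest relation between the genes was a negative one, between *Slc2a3* and *Pklr* (r = -0.73, permutation p = 8.0e-05, adjusted p = 0.0020, rho = -0.79, permutation p = 2.0e-05, adjusted p = 9.8e-04, n = 24). It was -0.74 in males and -0.73 in females, -0.71 without the 2 livers farthest in *Slc2a3* and -0.83 over the 18 livers without raised pancreas or bile duct markers. *Slc2a1* and *Hk1* rose together (r = 0.68, permutation p = 4.1e-04, adjusted p = 0.0067, rho = 0.67, permutation p = 5.8e-04, adjusted p = 0.0095), at 0.56 without the 2 farthest and 0.61 over the 18 livers. *Slc2a3* and *Pkm* did too (r = 0.62, permutation, adjusted p = 0.017, rho = 0.58, adjusted p = 0.042), at 0.55 without the 2 farthest and 0.69 over the 18 livers, as did *Hk2* and *Aldoa* (r = 0.58, permutation, adjusted p = 0.035, rho = 0.60, adjusted p = 0.041), at 0.60 without the 2 farthest and 0.73 over the 18 livers. For *Slc2a1* with *Pklr* (r = 0.55) and *Slc2a2* with *Hk2* (r = 0.57) the Pearson relation passed (permutation, adjusted p = 0.039 and 0.035) but the rank relation did not (adjusted p = 0.16 and 0.18).

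Blood cell markers moved with some of these genes. Over 30 relations with the mean log2 level of the marker lists, *Hk1* followed the 10 erythroid markers in fetal livers (r = 0.85, adjusted p = 3.0e-04, rho = 0.79, adjusted p = 3.0e-04, with both raw permutation p at 1e-05, the smallest 100000 permutations can give), at 0.73 without the 2 livers farthest in *Hk1* and also 0.73 over the 18 livers. *Slc2a1* followed them too (r = 0.75, permutation p = 5.0e-05, adjusted p = 7.5e-04, rho = 0.73, permutation p = 6.0e-05, adjusted p = 9.0e-04), at 0.67 without the 2 farthest and 0.73 over the 18 livers. *Slc2a2* went the other way (r = -0.49, permutation p = 0.012, adjusted p = 0.073, rho = -0.49, adjusted p = 0.091), at -0.40 without the 2 farthest and -0.34 over the 18 livers. The 8 hepatocyte markers moved up with *Slc2a3* (r = 0.64, permutation, adjusted p = 0.0077, rho = 0.64, adjusted p = 0.0099) and down with *Pklr* (r = -0.58, permutation, adjusted p = 0.030, rho = -0.64, adjusted p = 0.0099), at 0.58 and -0.45 over the 18 livers. The part of red cell precursors in the fetal levels of *Slc2a1*, *Hk1* and *Pklr*, and so in the differences from the adult, was not tested. Over 30 relations with library measures, *Slc2a1* in fetal livers was lower where more reads fell on genes (r = -0.54, permutation, adjusted p = 0.074, rho = -0.53, adjusted p = 0.098), and *Aldoa* in adult livers was lower where more counted reads fell outside genes (r = -0.67, permutation, adjusted p = 0.071, rho = -0.67, adjusted p = 0.056), a relation that fell to -0.36 over the 17 deeper livers.

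**Figure D4:**
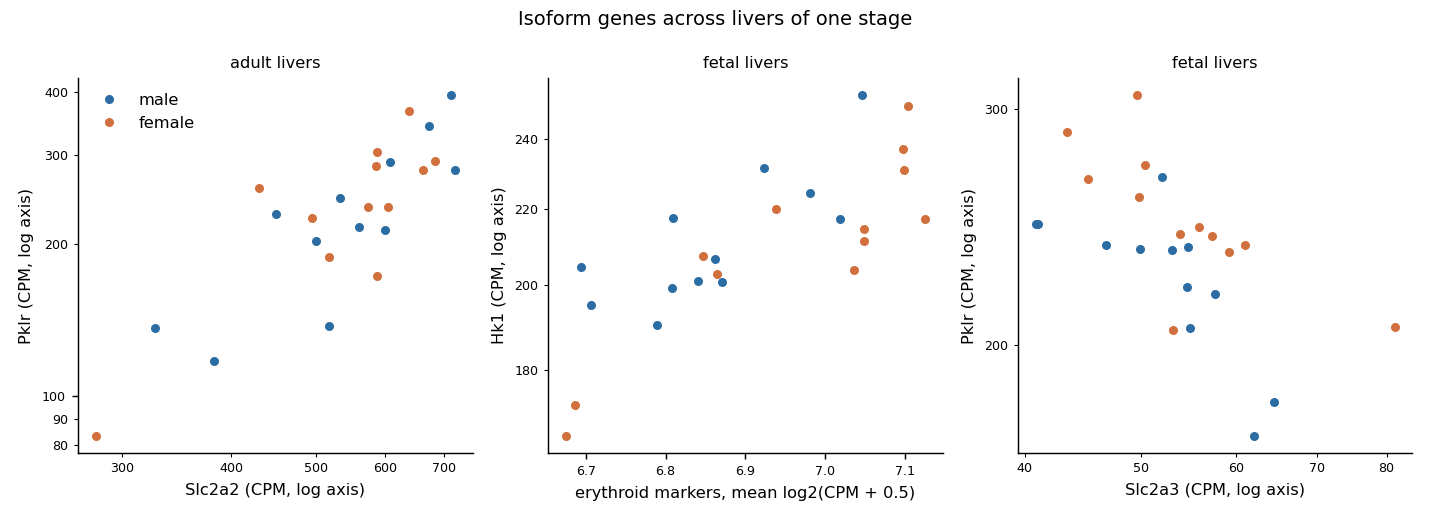
Each point is 1 liver, males in blue and females in orange, with CPM on log axes: Slc2a2 against Pklr in adult livers, the mean log2(CPM + 0.5) of the erythroid markers (linear axis) against Hk1 in fetal livers, and Slc2a3 against Pklr in fetal livers. With sex means subtracted the relations are r = 0.83, r = 0.85 and r = -0.73.

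Male and female samples were compared within each stage, the question of the study, and few of the 8 genes differed. In eight-cell embryos 0 of 6 tested genes were called by edgeR, with 0 at an unadjusted p under 0.05 and 0 called by DESeq2, against 0.264% of all 9087 genes tested. The 95% intervals ran from -1.32 to 4.27 on the log2 (male/female) scale for *Slc2a1* and from -0.28 to 0.63 for *Aldoa*.

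In ES cells 1 of 6 tested genes was called, against 9.50% of 12678 genes. *Slc2a1* was lower in the male lines (120.5 and 109.9 CPM) than in the female lines (203.1 and 182.3 CPM), with log2 (male/female) -0.74 ± 0.10 (edgeR adjusted p = 0.022). With 2 lines of each sex the call was lost when either female line was left out (adjusted p = 0.29 without replicate 3 and 0.28 without replicate 4), a setting in which no gene at all was called. *Slc2a3*, *Aldoa* and *Pkm* were also higher in both female lines than in either male line, at log2 -0.30 ± 0.09, -0.21 ± 0.06 and -0.14 ± 0.05, and were not called.

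In fetal liver 0 of 8 genes were called by edgeR and 0 by DESeq2, against 4.64% of 12930 genes. At an unadjusted p under 0.05 in edgeR stood 5235 of all genes tested, and 2 of the 8. These were *Pkm*, at 196.7 ± 20.2 CPM in males and 235.8 ± 19.3 CPM in females (log2 -0.23 ± 0.05, adjusted p = 0.0018), and *Aldoa*, at 226.6 ± 19.8 and 257.1 ± 25.5 CPM (log2 -0.15 ± 0.06, adjusted p = 0.049), both below the size threshold of 0.5. In adult liver 0 of 6 tested genes were called by edgeR and 0 by DESeq2, against 9.49% of 10372 genes. There 3820 of all genes tested had an unadjusted p under 0.05 in edgeR, as did 3 of the 6. *Hk1* had a mean of 6.77 CPM in males (4.73 to 9.34) and 8.85 CPM in females (6.33 to 12.1), with overlap (log2 -0.40 ± 0.13, adjusted p = 0.028). *Pkm* was again lower in males (log2 -0.23 ± 0.09, adjusted p = 0.069), while *Aldoa* was higher (log2 0.16 ± 0.06, adjusted p = 0.056). In livers with under 30% of counted reads outside genes, mean *Aldoa* was 126.6 CPM in males and 123.1 CPM in females. At or over 30% it was 124.6 and 97.6 CPM, so the *Aldoa* difference lay mainly in that set. *Slc2a2* and *Pklr* showed log2 (male/female) values of -0.04 (95% interval -0.29 to 0.20) and -0.09 (-0.50 to 0.32) in the adult.

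Whether the sex difference itself changed between fetal and adult liver was tested with an interaction term over all 48 livers, which called 13.7% of 13026 genes and 1 of these 8. *Hk2* was the gene called. Its adult levels rest on few reads, from 3 to 21 in each adult liver. *Hk2* was tested in the interaction, which also holds the fetal livers, but not between adult males and females alone. In fetal livers it was 45.5 ± 5.77 CPM in males and 47.6 ± 6.64 CPM in females, and in adult livers 3.74 ± 1.18 CPM (1.45 to 5.41) in males and 5.75 ± 2.68 CPM (1.94 to 9.65) in females (log2 difference of the sex effects, adult minus fetal, -0.65 ± 0.22, edgeR adjusted p = 0.026). Adult females and males overlapped. When adult livers were divided at 30% of counted reads outside genes, a measure of the library and not of these genes, the 6 females under 30% held 5.98 to 9.65 CPM and the 6 females at or over it 1.94 to 6.97 CPM, whereas the males held 1.45 to 4.68 and 2.90 to 5.41 CPM. The interaction was -1.27 (adjusted p = 2.7e-04) with the livers under 30% and 0.24 (adjusted p = 0.67) with the others, so the call for *Hk2* rested on the first set. The division was chosen after seeing the data, and the part of library composition in the difference was not tested. Male and female fetal livers did not overlap in the share of reads outside genes, so sex and library composition cannot be told apart among them. *Aldoa* (0.35 ± 0.08, adjusted p = 0.0014) and *Hk1* (-0.39 ± 0.14, adjusted p = 0.036) had interaction terms under the size threshold.

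**Figure D5:**
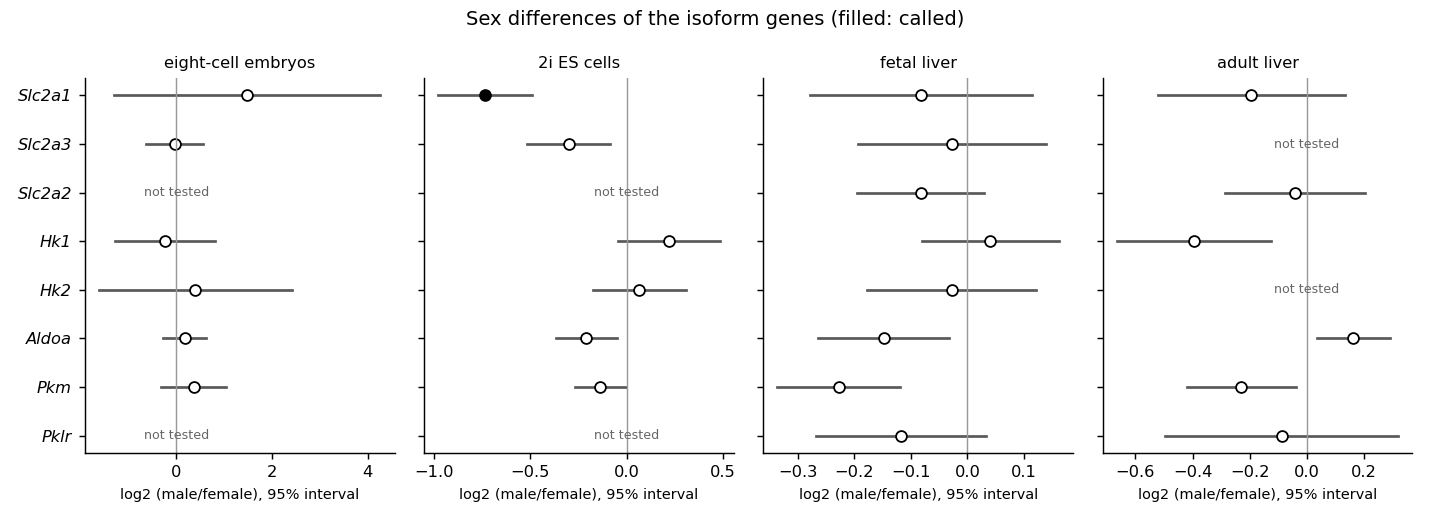
Fitted log2 (male/female) of each gene (points) with its 95% interval (lines) in eight-cell embryos, ES cells, fetal liver and adult liver, each panel with its own scale, with filled points for called genes. Slc2a1 in ES cells, at -0.74, is the one called gene, and genes with too few reads are marked as not tested.

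The genes whose levels ran most like these were sought among 13983 genes whose mean reached 1 CPM, by Pearson's r of log2(CPM + 0.5). Across all 64 samples, where the difference between 4 stages carries r and no test applies, *Slc2a2* ran with *Proz* and *Klkb1* (both 0.999) and *Pklr* with *Hgfac*, *Aqp1* and *Serpind1* (all 0.98). *Hk1* ran with *Tmpo*, *Mki67* and *Smc2* (0.96, 0.96 and 0.95) and *Slc2a1* with the histone genes *Hist1h1b*, *Hist1h2bn* and *Hist1h3i* (0.97, 0.96 and 0.96). *Slc2a3* ran with *Igf2bp1*, *Sf3b3* and *Pold1* (0.98, 0.97 and 0.97), *Pkm* with *Sox11*, *Xkr5* and *1700019D03Rik* (0.96, 0.96 and 0.95), *Aldoa* with *Akap12*, *Efna3* and *Pkm* (0.92 each) and *Hk2* with *Inpp5d*, *Srsf10* and *Gm4636* (0.90, 0.89 and 0.87).

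Over the 48 livers with the mean of each stage and sex subtracted, so that differences between single livers of a group remain, *Pklr* varied most like *Pdk1*, a pyruvate dehydrogenase kinase, *Fasn*, fatty acid synthase, and *Sqle*, squalene epoxidase (r = 0.79, 0.79 and 0.78). *Slc2a2* varied most like *Gys2*, the liver glycogen synthase, *Ctage5* and *Npc1* (0.84, 0.81 and 0.79). *Aldoa* had *Atp6v1e1*, *Acp5* and the liver phosphofructokinase gene *Pfkl* closest (0.65, 0.64 and 0.61). *Slc2a3* had *Cdc42se1*, *Slc41a3* and *Nin* (0.72, 0.71 and 0.70), *Pkm* had *Erp29*, *Glyr1* and *Ndufv3* (0.66, 0.65 and 0.65), and *Hk1* had *1700020I14Rik*, *BC026590* and *Eaf1* (0.68, 0.64 and 0.63). *Hk2* had *2410006H16Rik*, *Snora52* and *Anxa3* (0.68, 0.64 and 0.63) and *Slc2a1* had *Rnf139*, *Nhej1* and *Hist2h4* (0.61, 0.60 and 0.58).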

How the data were processed

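RNA-seq reads of 64 mouse samples were counted per gene. The authors aligned reads to mm10 with TopHat 2.0.4 (Bowtie2 2.1.0, SAMtools 0.1.18), removed duplicates with Picard and deposited raw counts per gene from HTSeq, with no normalization. The strand setting of the counting is not given in the sources used here. Rows that name no gene held 8.63% to 49.0% of counted reads and were left out. Depths are given with the results. Reads carried no molecular identifiers, so counting intervals and limits leave out all other error.

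Samples were grouped by stage and sex from their labels. Genes were matched by symbol or RefSeq synonym. Counts were tested with edgeR 4.0.16 (R 4.3.3) with TMM scaling, filterByExpr and a robust quasi-likelihood fit, two-sided, with Benjamini-Hochberg adjustment over all genes tested. The comparisons were the 3 steps between stages, each with sex as a covariate, male against female within each stage, and the interaction of stage and sex in liver. Each standard error was obtained by dividing the log2 value by the root of its F statistic. Levels per kilobase used merged exons of GENCODE coding transcripts, and whether reads scale with that length, above all in the amplified embryos, was not tested. Ratios used a pseudocount of 0.5 CPM and were not tested. Correlations within livers used Python 3.11.15, numpy 2.4.6, scipy 1.17.1 and pandas 2.3.3. The scripts were tested on simulated data.

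The genes and lists were chosen with earlier results of these data known. Named were the 8 genes, Ldha and Ldhb, the 2 largest called rises and falls per stage comparison among the other lists, and the 3 genes most like each of the 8 over all samples and over the livers. The marker genes were also named. A few genes that meet these criteria were left out of the text. The alternatives were DESeq2 1.42.0, other scalings, no expression filter, no size threshold, other pseudocounts, a replicate block, adult livers with at least 2000000 reads, and leaving out single ES cell lines. After seeing the data, fits without 6 fetal livers and with adult livers divided by reads outside genes were added. No 2 libraries were alike within sampling noise.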

Additional observations from a re-analysis of the deposited data

Results flagged for a closer look

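Within single groups of 4 to 10 samples, 14 gene and group sets were examined for a sample far from the rest by Dixon's ratio. Chance marks about 1 in 20 such sets where values are normally distributed. That rate does not hold for Pklr in embryos, since most of them had no read. In the females any level in a single embryo would have marked it. Hk2 in female eight-cell embryos stood out in replicate 10, at 77.4 CPM, where the stage median was 19.8 CPM. Pklr in male eight-cell embryos stood out in replicate 4, at 3.61 CPM (32 reads), and in female eight-cell embryos in replicate 12, at 5.63 CPM (35 reads), while 9 of the 12 embryos had no read. Whether these reads come from the embryo or from its amplification was not tested.

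The sex difference itself differed between adult and fetal liver for 3 of the 8 genes by an adjusted p under 0.1 of the interaction term in edgeR. Such terms were common among all genes. At an unadjusted p under 0.05 of this term stood 4871 of 13026 genes and 3 of the 8, so the number is not particular to them. The log2 (male/female) value in the adult minus that in the fetus was -0.39 for Hk1 (adjusted p = 0.036), -0.65 for Hk2 (adjusted p = 0.026) and 0.35 for Aldoa (adjusted p = 0.0014). The value for Hk2 rests on 3 to 21 reads in each adult liver. Without the 6 fetal livers with raised pancreas or bile duct markers the value for Hk1 was -0.28 (adjusted p = 0.13). For Aldoa it was 0.18 (adjusted p = 0.24) with adult livers under 30% of counted reads outside genes and 0.49 (adjusted p = 6.1e-04) with the others.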

How the results depend on the processing

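Of the log2 values of the 8 genes, 391 kept direction and side of the threshold under the alternatives, 12 reversed, 1 passed the threshold and 2 lost it. The numbers of the 8 genes called in the 3 stage comparisons (7, 8 and 6) were within 1.5 times of these under every setting run, and 7 were called between ES cells and embryos with no expression filter and 5 with DESeq2, which gave Hk2 no adjusted p. Between the sexes the number called was 0 to 1 in ES cells with one line left out, 2 in fetal liver with no size threshold, and in adult liver 1 with no expression filter, 1 with at least 2000000 reads, 1 with under 30% of reads outside genes and 3 with no size threshold. The interaction called 3 with no size threshold. The cause was not tested. Counts over all genes moved by more than 1.5 times in eight-cell embryos with DESeq2 (64 against 24), in ES cells without male replicate 1 or 2 (2606 and 3070 against 1205) and without either female line (0), in fetal liver with no filter (1057) or no size threshold (4807, against 600), in adult liver likewise (1518 and 3400, against 984) and in the interaction with no size threshold (4384 against 1787).

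Values that reversed were those of Pklr between adult and fetal liver with library totals (-0.45) and, in sex comparisons, of genes not called: Slc2a3 in embryos with library totals (0.0252), Hk2 in ES cells without male replicate 2 (-0.0536) with 0.175 at the other end of leaving out one line, Hk1 in fetal liver without the 6 livers (-0.0536), and Slc2a2 in adult liver with at least 2000000 reads (0.12) or under 30% of reads outside genes (0.15). Interaction terms reversed for Slc2a1 (0.0296 under 30%, 0.0245 without the 6 livers), Pkm (-0.0188 under 30%), Slc2a3 (0.36), Slc2a2 (-0.13) and Hk2 (0.24), the last 3 at or over 30%. The ratio of Slc2a3 to Slc2a1, adult minus fetal, turned from -0.09 to 0.27 with a pseudocount of 1 CPM and to 0.0137 with at least 2000000 reads.

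Library totals moved the median of all genes to 0.83 between ES cells and embryos, from 0.44, and calls that were higher in ES cells from 57.9% to 66.5%, while all 6 genes stayed higher. Same-numbered fetal and adult livers did not deviate together (r from -0.12 to 0.07, and 1 of 24 correlated best with its own number), so no pairing by number was seen. A pairing that leaves no joint deviation would be missed this way. A replicate block gave 7, 8 and 6 calls among the genes. Depth limits Slc2a3 and Hk2 in adult liver, and the counts before the liver for Slc2a2 and Pklr.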
